A study of Homo sapiens with 30 samples.

Results

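LNCaP and VCaP cells were compared without androgen, using the 6 vehicle libraries of a 30-library ATAC-seq series: 3 of LNCaP (replicates 3, 4 and 5) and 3 of VCaP (replicates 1, 2 and 4). LNCaP is an established androgen-sensitive prostate cancer line derived from a lymph node metastasis. VCaP is an established prostate cancer line from a vertebral metastasis. Cells of both lines were seeded at 130000 (LNCaP) or 300000 (VCaP) per well in medium with 8% charcoal-treated serum, which holds little steroid, and received vehicle 48 h later for 24 h. The base medium differed as well, an RPMI medium for LNCaP and DMEM for VCaP, so the effects of line and medium cannot be told apart. The other 24 libraries are from the same lines under the synthetic androgen R1881. Chromatin was prepared by the Omni-ATAC protocol, in which a transposase cuts and tags accessible DNA, so a peak marks a site of open chromatin. Nothing in the labels says that the replicates are separate cultures, and the p-values below measure the spread between these libraries, which may be technical.

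VCaP is known for a fusion of the androgen-driven TMPRSS2 gene with ERG, an ETS transcription factor, and LNCaP for a rearranged ETV1, another ETS gene. In prostate cells, androgen signalling acts at enhancers that factors such as FOXA1, HOXB13 and GATA2 help to keep open, and it drives genes such as KLK3, which encodes prostate-specific antigen. Serum without steroids leaves this signalling largely idle.

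Each peak list was shortened to its 100000 entries with the highest −log10 p, and a library's entries were ranked so that the strongest stands at 100 percentile points. Regions are windows of 501 bp around the strongest summits on chromosomes 1 to 22 and X, and a region's level in a library is the rank of the peak that covers its centre, or 0 where none does. A level of 0 means no peak among the 100000 kept, and a wide peak gives its rank to each window centre it covers. Of 205155 regions placed, 89601 had a peak in at least 3 of the 6 libraries and were tested with limma, with a Benjamini-Hochberg adjusted p under 0.05 as the threshold. Differences are LNCaP minus VCaP in percentile points, each with its standard error (SE). The test draws a region's spread toward that of regions of similar mean level. An SE and its p-value therefore do not rest on the libraries' values at that region alone. A region carries the name of the closest protein-coding gene, up to 100 kb off, and a name says nothing about what the region controls.

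Promoters at which the lines differed are shown first, since gene-end peaks with a large difference or of listed genes fall on them. HOGA1, TRIOBP, PXMP4 and RASSF6 are among the largest gene-end differences, and SULT2B1, GPX3 and KLK2 are genes of the lists below. The sequences are the 250 bases before the start site, read 5′ to 3′ on the gene's strand from RefSeq (GRCh38.p14), in lower case with every CpG in capitals. HOGA1 encodes a mitochondrial aldolase of hydroxyproline breakdown, TRIOBP an actin-binding protein and SULT2B1 a sulfotransferase of cholesterol and other hydroxysteroids. These 3 promoters had a peak in every LNCaP library and in no VCaP library. They lie at chr10:97584139-97584388, chr22:37696798-37697047 and chr19:48551922-48552171, all on the plus strand, and hold 3, 13 and 11 CpGs.
HOGA1: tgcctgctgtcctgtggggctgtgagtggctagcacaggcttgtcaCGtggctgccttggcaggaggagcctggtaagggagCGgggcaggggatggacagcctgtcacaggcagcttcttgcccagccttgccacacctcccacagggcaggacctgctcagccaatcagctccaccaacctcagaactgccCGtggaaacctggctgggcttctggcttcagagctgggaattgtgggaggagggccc
TRIOBP: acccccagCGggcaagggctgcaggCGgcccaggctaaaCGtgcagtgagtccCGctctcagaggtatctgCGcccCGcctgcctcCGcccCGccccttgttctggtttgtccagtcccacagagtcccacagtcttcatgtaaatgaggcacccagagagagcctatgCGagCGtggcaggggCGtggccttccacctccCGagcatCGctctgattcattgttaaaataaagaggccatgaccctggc
SULT2B1: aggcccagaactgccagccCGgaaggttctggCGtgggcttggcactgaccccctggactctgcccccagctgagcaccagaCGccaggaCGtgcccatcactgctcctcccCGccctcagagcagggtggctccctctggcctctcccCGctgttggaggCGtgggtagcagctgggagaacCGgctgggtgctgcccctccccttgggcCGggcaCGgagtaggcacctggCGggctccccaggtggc

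PXMP4 encodes a peroxisomal membrane protein, RASSF6 a Ras association domain protein and GPX3 a secreted glutathione peroxidase. Their promoters had a peak in every VCaP library and in no LNCaP library. KLK2 encodes a kallikrein protease that androgen induces, and its promoter had a peak in all 6 libraries that ranked lower in LNCaP. They lie at chr20:33720311-33720560 (minus strand), chr4:73620632-73620881 (minus strand), chr5:151020341-151020590 (plus strand) and chr19:50873189-50873438 (plus strand), with 8, 4, 17 and 2 CpGs.
PXMP4: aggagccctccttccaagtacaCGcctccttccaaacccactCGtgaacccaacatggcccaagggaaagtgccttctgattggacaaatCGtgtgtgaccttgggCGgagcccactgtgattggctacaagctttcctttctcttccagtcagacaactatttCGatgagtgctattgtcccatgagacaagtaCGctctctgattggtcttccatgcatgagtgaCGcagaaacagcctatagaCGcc
RASSF6: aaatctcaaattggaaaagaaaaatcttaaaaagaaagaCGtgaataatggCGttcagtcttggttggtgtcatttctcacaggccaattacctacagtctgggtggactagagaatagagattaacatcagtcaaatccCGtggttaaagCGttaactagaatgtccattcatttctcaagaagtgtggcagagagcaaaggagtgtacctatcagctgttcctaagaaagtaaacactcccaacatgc
GPX3: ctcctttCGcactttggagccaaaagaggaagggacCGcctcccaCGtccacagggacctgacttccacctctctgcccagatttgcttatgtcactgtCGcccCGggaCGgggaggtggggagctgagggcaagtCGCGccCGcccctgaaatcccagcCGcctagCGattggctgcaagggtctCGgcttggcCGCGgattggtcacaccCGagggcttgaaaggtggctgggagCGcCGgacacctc
KLK2: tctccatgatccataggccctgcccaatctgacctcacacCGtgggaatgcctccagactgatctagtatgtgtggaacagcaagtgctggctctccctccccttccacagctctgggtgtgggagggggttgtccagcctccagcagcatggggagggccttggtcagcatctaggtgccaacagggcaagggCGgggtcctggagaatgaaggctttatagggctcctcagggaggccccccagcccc

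The lists differed in length between the lines. They held 135254, 162333 and 174513 entries in LNCaP and 105034, 117798 and 132806 in VCaP, groups that did not overlap (exact permutation p = 0.1, two-sided, the smallest that 3 against 3 allows). The number of reads is unknown, but the background pileup solved from the lists, which scales with depth, was 3.06, 4.05 and 4.83 in LNCaP and 1.14, 1.09 and 2.11 in VCaP. The weakest entry kept had a −log10 p of 5.19, 5.25 and 3.80 in LNCaP and of 2.21, 2.28 and 3.30 in VCaP, so a VCaP list reaches down to weaker peaks. LNCaP replicate 5 and VCaP replicate 2 stood somewhat apart in their own lines, with 56559 and 24406 entries of a −log10 q of at least 5, against 87258 and 89715 in the other LNCaP libraries and 53504 and 60469 in the other VCaP libraries. Spearman's rho between libraries over the tested regions was 0.804 to 0.894 within LNCaP, 0.767 to 0.827 within VCaP and 0.349 to 0.446 between the lines, given as a description.

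The lines shared 34902 regions with a peak in all 6 libraries, and each held many that the other lacked. A peak stood in all 3 LNCaP and no VCaP library at 12315 regions, and in all 3 VCaP and no LNCaP library at 7416. Of the LNCaP regions, 93.2% had no VCaP entry even in the whole lists as deposited, and of the VCaP regions 76.6% had no LNCaP entry there. The whole VCaP lists go less far past the 100000 kept than the LNCaP lists do, so both shares move with list length and their gap is no measure of the lines. These peaks were mostly of middling rank in their own line, with a median level of 47.3 points for the LNCaP set and 56.6 for the VCaP set. At the top of the lists, 171 regions of the LNCaP set and 214 of the VCaP set averaged at least 90 points. Without LNCaP replicate 5 the LNCaP count was 22478, and without VCaP replicate 2 the VCaP count was 13764.

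**Figure D1:**
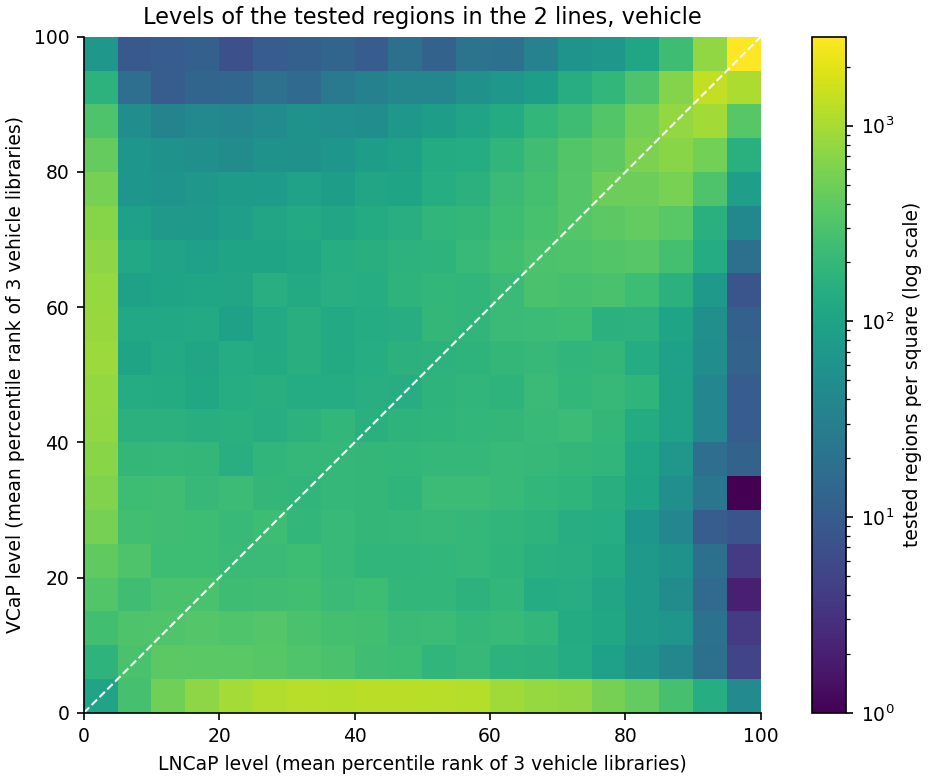
Each square counts tested regions by their mean level in the 3 LNCaP (x axis) and 3 VCaP (y axis) vehicle libraries, both in percentile points, with the count on a log colour scale and the dashed line at equal levels. Regions crowd at the top right, where both lines rank high, and along the 2 axes, where a line has no kept peak.

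Of the 89601 regions tested, 30455 passed (34.0%), 17521 of them higher (19.6%) and 12934 lower (14.4%) in LNCaP. The median difference was 49.2 points among the higher and −52.1 among the lower regions. An unadjusted p under 0.05 was found at 39668. In every called region the 3 libraries of one line lay above the 3 of the other, as they also did in 24.8% of the regions not called. The split depended on which entries entered: 71.3% of the called regions were higher in LNCaP with all entries as deposited, 86.7% with entries of a −log10 q of at least 5 and 38.7% where a peak was required in all 6 libraries, against 57.5% here. The balance of directions is therefore not a measure of which line has more open chromatin.

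The regions called above lay away from gene ends more often than shared peaks did. Since the annotation used gives no strand, a gene end is either end of a gene body, and a region within 1 kb of it counts as a gene-end region. Such regions made up 36.2% of those with a peak in all 6 libraries, 4.77% of those with a peak in all 3 LNCaP and no VCaP library and 13.7% of those with a peak in all 3 VCaP and no LNCaP library. They were 9.50% of the regions called higher and 17.1% of those called lower, and 23.8% of those not called. Where a peak was required in all 6 libraries, the order of the 2 directions turned round, with 35.6% of the higher and 24.5% of the lower regions at a gene end. Of 17933 gene-end regions tested, 1664 were higher (9.28%) and 2209 lower (12.3%) in LNCaP. A called region was nearest to 7967 of 16936 genes in the higher direction (47.0%) and to 6030 in the lower (35.6%). Per library, gene-end regions were 17.3, 17.4 and 18.7% of those with a peak in LNCaP and 18.2, 17.8 and 20.6% in VCaP (exact permutation p = 0.5). The median peak width was 617, 623 and 571 bp in LNCaP and 706, 425 and 658 bp in VCaP (exact permutation p = 1.0).

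The 10 largest LNCaP-high differences were sites near the very top of each LNCaP list with no kept VCaP peak. A site 11.3 kb from NEK11, a kinase of the DNA damage checkpoint, stood at 99.9 points in each LNCaP library and at 0 in each VCaP library (chr3:131361545-131362045, difference 99.9 ± 6.79 SE, limma adjusted p = 0.000719). The HOGA1 promoter shown above stood at 99.8, 99.5 and 99.7 points in LNCaP and at 0 in VCaP, and the TRIOBP promoter at 97.8, 97.6 and 99.0 in LNCaP and at 0 in VCaP. Others lay inside TSC2, whose product restrains mTORC1 growth signalling, inside ABCA2, a lipid transporter gene, inside PTPRE, a tyrosine phosphatase gene, inside UNC13A, which primes synaptic vesicles, and inside FSIP2, a sperm flagellum gene. The remaining sites were near PRAG1, a pseudokinase gene, and MKNK2, a kinase of the translation factor eIF4E. All 10 had an adjusted p of 0.000719, with differences of at least 98.0 points. At gene ends, the next largest were at RPL10L, a ribosomal protein gene of testis, RCCD1, BNIP3L, a mitophagy receptor, CIDEB, a lipid droplet protein, RAB37, a small GTPase, ISL1, a LIM homeodomain factor, and DYNLT4, a dynein light chain, by 93.9 to 96.1 points.

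The largest VCaP-high differences were as complete, and 7 of the 10 were at gene ends. A region at an end of MACROD1, which removes ADP-ribose from proteins, stood at 0 in every LNCaP library and at 99.9, 99.7 and 99.9 in VCaP (chr11:63999287-63999787, difference −99.9 ± 6.79 SE, adjusted p = 0.000719). ZBTB7B, a zinc finger factor of T helper cells, PXMP4, ID4, an inhibitor of helix-loop-helix factors, RASSF6 and SNX32, a sorting nexin, were likewise at 0 in LNCaP and between 97.4 and 99.8 in VCaP at a gene end. The PXMP4 promoter shown above stood at 99.4, 99.4 and 99.1 points in VCaP and the RASSF6 promoter at 99.6, 99.4 and 98.0. Away from gene ends, the 10 took in FER, a tyrosine kinase gene, CATSPERE, of a sperm calcium channel, and a site 62.5 kb from UGT2B15, which conjugates dihydrotestosterone for removal, at 0 in LNCaP and 99.6, 96.4 and 99.5 in VCaP. CDKL2, a kinase gene, closed the 10 with an end region that differed by −98.1 points. Gene-end regions next in size were at CYP7B1, an oxysterol hydroxylase, ALDH7A1, an aldehyde dehydrogenase, and TFCP2, a transcription factor, by 96.8 to 97.6 points. Within 1 Mb of the MACROD1 and ID4 sites, regions with a peak in all 6 libraries also had lower summit pileups in LNCaP, by medians of −1.39 and −1.73 (log2, each library centred on its median region), and around the TSC2 site higher ones, by 1.33. The named regions of both directions passed in 18 of the 20 other settings tried, and the other 2 require a peak in all 6 libraries, which these cannot have.

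**Figure D2:**
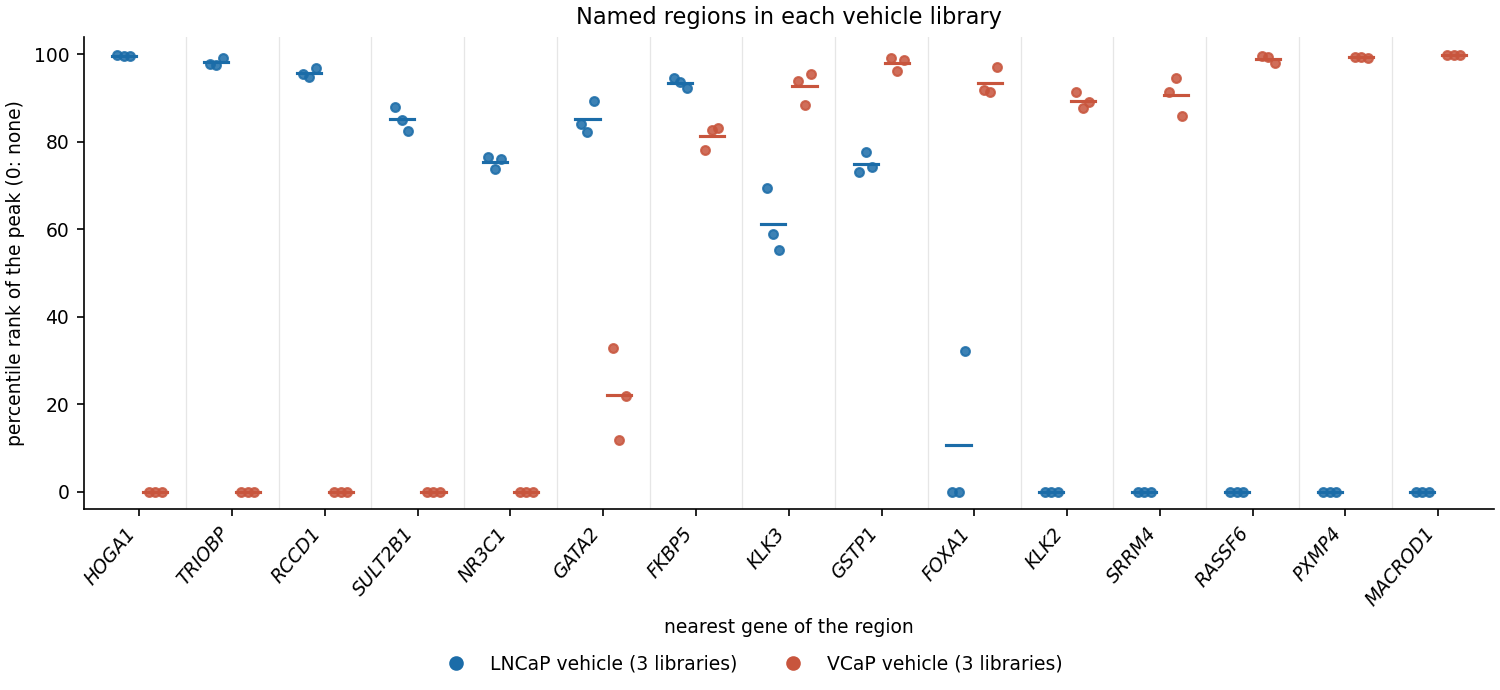
Points are the levels (percentile rank, 0 for no kept peak) of 15 regions in each of the 3 LNCaP and 3 VCaP vehicle libraries, and bars are group means. Regions on the left have no VCaP peak, those on the right no LNCaP peak or nearly none, and GATA2, FKBP5, KLK3 and GSTP1 between them have peaks of different rank in both lines.

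Genes that androgen is known to induce had sites in both directions. The 29 genes of this list had 48 of 305 regions higher (15.7%) and 59 lower (19.3%), against 19.1 and 14.0% over all regions assigned to a gene. Of the 29 genes, 20 had a region higher and 20 a region lower. Near their ends, 1 of 41 regions was higher and 9 were lower, at ACP3, CHRNA2, IQGAP2, KLK2, NDRG1, TMPRSS2 and TRPM8 among others. Over all gene-end regions 9.28% were higher and 12.3% lower. The ACP3 call was lost without LNCaP replicate 3 or 4, and the CHRNA2 call without VCaP replicate 1. A list's lean is its share of higher minus its share of lower regions, less the same over all tested regions. It was −8.73 percentage points here, and it turned to 0.374 with entries of a −log10 q of at least 5.

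Of the kallikrein genes, KLK2 had 3 of 4 regions lower in LNCaP and none higher, KLK3 had 1 of 2 in each direction, and KLK4 had no call in 3. The upstream KLK3 site, 3.99 kb from the gene, stood at 69.4, 58.9 and 55.3 in LNCaP and at 93.9, 88.5 and 95.5 in VCaP (chr19:50850677-50851177, difference −31.4 ± 4.77 SE, adjusted p = 0.00437). A site inside KLK3 went the other way, at 82.0, 79.4 and 38.2 in LNCaP and 0 in VCaP (difference 66.5 ± 12.8 SE, adjusted p = 0.0105), a call made in 15 of 20 settings. The KLK2 promoter stood at 81.2, 75.1 and 74.6 in LNCaP and at 90.1, 92.6 and 93.8 in VCaP (difference −15.2 ± 2.57 SE, adjusted p = 0.0064). With 10 nM R1881 it averaged 92.8 ± 2.64 in LNCaP and 81.6 ± 5.62 in VCaP (SD, n = 3 each), the other order. At the other end of KLK2 (chr19:50879888-50880388) LNCaP had no kept peak, and VCaP stood at 91.3, 87.6 and 89.0. That site had a peak in LNCaP under 10 nM R1881, at 53.3 ± 4.88 points (SD, n = 3), beside 97.3 ± 0.77 in VCaP at the same dose.

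TRPM8, a cation channel gene that androgen induces, had a VCaP-high site with vehicle that was listed in both lines at the high dose. Its gene-end region stood at 0 in LNCaP and at 63.4, 69.7 and 63.9 in VCaP with vehicle (difference −65.7 ± 5.87 SE, adjusted p = 0.000733). With 10 nM R1881 it averaged 75.1 ± 3.28 points in LNCaP and 78.5 ± 4.94 in VCaP (SD, n = 3 each), and the dose effect was not tested.

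LNCaP-high sites of this list lay inside HOMER2, FOLH1, STEAP2 and FKBP5. HOMER2, a scaffold gene, stood at 85.8, 85.2 and 87.3 in LNCaP and 0 in VCaP (difference 86.1 ± 6.49 SE, adjusted p = 0.000719) at that site, while the gene had 2 of 12 regions higher and 6 lower. FOLH1, which encodes prostate-specific membrane antigen, had 9 of 18 regions higher and none lower, and its named site stood at 74.96, 78.6 and 87.7 in LNCaP and 0 in VCaP. STEAP2, a metalloreductase gene, had 4 of 10 higher and none lower, with a site at 76.8, 79.1 and 78.3 in LNCaP and 0 in VCaP. FKBP5, a co-chaperone of steroid receptors, had 2 of 10 higher and none lower, and its site of smallest p stood at 94.6, 93.7 and 92.3 in LNCaP and 78.2, 82.8 and 83.3 in VCaP (difference 12.1 ± 1.99 SE, adjusted p = 0.00572). NDRG1, a differentiation gene, leaned to VCaP, with 1 higher and 7 lower of 16 and an intragenic site at 0 in LNCaP and 99.2, 97.9 and 96.6 in VCaP.

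Genes known to be repressed by androgen had 24 of 149 regions higher (16.1%) and 35 lower (23.5%) in LNCaP. The shares over all regions assigned to a gene were 19.1 and 14.0%. Near gene ends 2 of 26 regions of the list were higher, at BCHE and PRUNE2, and 10 lower, at BRINP1, CCN3, CDH2, CHN1, MYC, OPRK1 and TULP4. The gene-end shares over all genes were 9.28% higher and 12.3% lower. The PRUNE2 call was lost when any 1 library other than VCaP replicate 4 was left out (adjusted p = 0.0510 to 0.124). So was that of a CDH2 end not described below (chr18:28176593-28177093, adjusted p = 0.0816 to 0.111). The CHN1 and OPRK1 calls were lost when any 1 library other than LNCaP replicate 4 was left out (adjusted p = 0.0527 to 0.133). Ends of BCHE, CCN3 and TULP4 lost a call without at least 1 library (adjusted p = 0.0513 to 0.0636). The BRINP1 end, of a neural growth inhibitor, stood at 0 in LNCaP and at 85.8, 83.5 and 81.6 in VCaP (difference −83.6 ± 6.43 SE, adjusted p = 0.000719). CDH2, the N-cadherin gene, stood at 9.04, 25.9 and 27.3 in LNCaP and 75.6, 90.3 and 73.9 in VCaP at an end (difference −59.2 ± 9.24 SE, adjusted p = 0.00464). DDC, the enzyme of dopamine and serotonin synthesis, had 3 of 9 regions higher and 3 lower. Its LNCaP-high intragenic site stood at 79.9, 86.6 and 58.6 in LNCaP and 0 in VCaP. Around the oncogene MYC, 16 of 65 regions within 500 kb were higher and 14 lower, and a site 33.9 kb away stood at 0 in LNCaP and 88.3, 92.1 and 93.0 in VCaP.

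The pioneer and luminal factor genes differed in their own sites. FOXA1, a forkhead factor that opens chromatin, had no LNCaP peak in replicates 3 and 4 and 32.3 points in replicate 5 at a site 5.64 kb away, and stood at 91.8, 91.4 and 97.2 in VCaP (chr14:37583666-37584166, difference −82.7 ± 11.1 SE, adjusted p = 0.00273). GATA2 had an intragenic site at 84.2, 82.3 and 89.2 in LNCaP and 32.9, 11.8 and 21.99 in VCaP (difference 63.0 ± 8.38 SE, adjusted p = 0.00247), where LNCaP averaged 86.4 ± 2.76 and VCaP 78.7 ± 7.32 with 10 nM R1881 (SD, n = 3 each). HOXB13, a homeobox factor of the prostate, had 4 tested regions and no call: its end region stood at 81.0, 81.2 and 55.3 in LNCaP and 59.9, 71.9 and 69.5 in VCaP. Over the list, 47 of 307 regions were higher (15.3%) and 63 lower (20.5%), against 19.1 and 14.0% over all regions assigned to a gene. Among the largest were a site 90.02 kb from FOXA2, a forkhead factor of endoderm, at 0 in LNCaP and 98.2, 96.3 and 95.6 in VCaP, and one inside RUNX1, on chromosome 21, at 0 in LNCaP and 94.4, 92.4 and 90.9 in VCaP. KLF6, GRHL1, NFIB and NFIA gave the LNCaP-high sites, by 69.1 to 75.02 points.

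ERG had 4 of 19 regions lower and none higher, and TMPRSS2 had 2 of 17 higher and 6 lower. One end region of TMPRSS2 (chr21:41506936-41507436) stood at 52.9, 53.0 and 65.0 in LNCaP and 85.8, 85.1 and 85.8 in VCaP (difference −28.6 ± 5.04 SE, adjusted p = 0.00714). The region next to it, nearer the gene end (chr21:41507936-41508436) stood at 90.1, 89.7 and 82.1 in LNCaP and 86.2, 80.4 and 90.2 in VCaP, which overlap (difference 1.67 ± 3.48 SE, adjusted p = 0.743). An end region of ERG (chr21:38661018-38661518) stood at 0, 24.9 and 0 in LNCaP and 64.9, 49.8 and 52.1 in VCaP (difference −47.3 ± 9.52 SE, adjusted p = 0.0123), called in 14 of 20 settings and not without LNCaP replicate 3 (−43.2 points, adjusted p = 0.0604). Within 500 kb of TMPRSS2, 3 of 63 regions were higher and 22 lower, and within 500 kb of ERG 4 of 50 were higher and 14 lower. Median summit pileups at windows listed in every library were also lower in LNCaP around both genes, by −0.90 and −0.62 (log2), as on chromosome 21 at large, described below. The ETV1 end stood at 85.7, 77.6 and 72.8 in LNCaP and 93.7, 95.0 and 92.5 in VCaP (difference −15.004 ± 3.47 SE, adjusted p = 0.0199, called in 13 of 20 settings). Without LNCaP replicate 4, or when any 1 VCaP library was left out, its adjusted p was 0.0529 to 0.0743. ETS genes as a list had 29 of 187 regions higher (15.5%) and 31 lower (16.6%), against 19.1 and 14.0% over all regions assigned to a gene.

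Nuclear receptor genes differed in both directions, NR0B1 at a gene end and NR3C1 inside the gene. NR0B1, which encodes the corepressor DAX1, had an end region at 0 in LNCaP and at 89.2, 92.7 and 71.8 in VCaP (difference −84.6 ± 8.23 SE, adjusted p = 0.000873). NR3C1, the glucocorticoid receptor gene, had an intragenic site at 76.6, 73.7 and 76.0 in LNCaP and 0 in VCaP (chr5:143309709-143310209, difference 75.4 ± 5.98 SE, adjusted p = 0.000719). Of 329 regions of the list, 54 were higher (16.4%) and 55 lower (16.7%), against 19.1 and 14.0% over all regions assigned to a gene. The lean was −5.42 percentage points and kept its sign in all 20 other settings. Named LNCaP-high sites were at NR4A3, PPARD and NR1D2, and VCaP-high ones at RXRB, NR4A2 and THRB.

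Enzymes that make, convert or inactivate androgens differed at named sites in both directions. The SULT2B1 promoter shown above stood at 87.8, 85.0 and 82.5 in LNCaP and 0 in VCaP (difference 85.1 ± 6.55 SE, adjusted p = 0.000719). SRD5A1, which makes dihydrotestosterone, had an intragenic site at 74.0, 78.5 and 80.7 in LNCaP and 0 in VCaP, which with 10 nM R1881 stood at 97.5 ± 1.36 in LNCaP and 84.2 ± 0.676 in VCaP. SRD5A2 had sites in both directions: one at 77.2, 79.6 and 85.3 in LNCaP and 0 in VCaP, and another at 0 in LNCaP and 93.1, 89.5 and 95.3 in VCaP. The list had 29 of 125 regions higher (23.2%) and 18 lower (14.4%), against 19.1 and 14.0% over all regions assigned to a gene. Its lean was turned round by 5 of 20 other settings. UGT2B17, which conjugates testosterone, had a single tested region, at 28.5, 3.57 and 0 in LNCaP and 23.1, 0 and 0 in VCaP, and no call.

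In the glutathione and detoxification list 17 of 71 regions were higher (23.9%) and 16 lower (22.5%). The shares over all regions assigned to a gene were 19.1 and 14.0%. The GPX3 promoter stood at 0 in LNCaP and at 90.6, 93.3 and 94.5 in VCaP (difference −92.8 ± 6.78 SE, adjusted p = 0.000719), and a site 3.28 kb from the gene's end at 77.5, 77.9 and 74.3 in LNCaP and 0 in VCaP. GSTP1, a glutathione transferase gene often methylated in prostate cancer, had a region 1.23 kb outside a gene end at 73.0, 77.6 and 74.1 in LNCaP and 99.2, 96.1 and 98.8 in VCaP (difference −23.1 ± 2.04 SE, adjusted p = 0.000732). The metallothionein genes on chromosome 16 split. MT1E had an end region at 0 in LNCaP and 90.1, 73.0 and 86.4 in VCaP, while the MT1G end stood at 68.3, 54.4 and 50.1 in LNCaP and 0 in VCaP. NQO1, a quinone reductase gene on the same chromosome, stood at 98.9, 98.5 and 99.7 in LNCaP and 83.1, 86.0 and 90.5 in VCaP. Median log2 pileup differences within 1 Mb of these 3 sites were 1.04 to 1.07, so MT1E went against its surroundings.

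HOX genes, which set position along the body axis, were the list that leaned most to VCaP: 5 of 78 regions were higher (6.41%) and 25 lower (32.1%), with a median difference of −12.5 points against 3.45 over all regions assigned to a gene. Of all those regions 19.1% were higher and 14.0% lower. The HOXD cluster had 0 of 12 higher and 8 lower, HOXA 1 and 7 of 19, HOXB 1 and 5 of 23, and HOXC 3 and 5 of 24. The HOXD11 end stood at 9.54, 0 and 10.9 in LNCaP and 76.3, 73.4 and 65.7 in VCaP (difference −65.0 ± 7.16 SE, adjusted p = 0.00127). HOXA13, a posterior HOX gene like HOXD11, had an end at 0 in LNCaP and 68.5, 82.6 and 86.5 in VCaP (difference −79.2 ± 7.54 SE, adjusted p = 0.00082). Of the 5 higher regions 3 were at HOXC genes, with a site near HOXC11 at 92.5, 90.3 and 87.7 in LNCaP and 51.9, 0 and 49.0 in VCaP, and the HOXC13 end at 99.1, 99.3 and 94.1 in LNCaP and 92.5, 90.04 and 90.4 in VCaP. The HOXC11 site was called in 15 of 20 settings and lost its call when any 1 LNCaP library was left out (adjusted p = 0.0888 to 0.106). The HOXC13 end was called in 10 of 20, and lost its call when any 1 library other than LNCaP replicate 5 was left out (adjusted p = 0.0517 to 0.119). Median log2 pileup differences within 1 Mb of these sites were between −0.32 and 0.02. The lean kept its sign in all 20 other settings, at −1.18 percentage points at its smallest. The other higher regions were at HOXB3, by 34.9 points, and at HOXA10, by 16.5, the last not called without LNCaP replicate 3 (16.6 points, adjusted p = 0.0538). A higher region of HOXC9 lost its call without LNCaP replicate 3 or 4 (adjusted p = 0.0563 and 0.0508). Calls of lower regions were lost as well. Ends of HOXD1, HOXD8, HOXD13, HOXA9 and HOXC9 each lost one without any of several single libraries (limma adjusted p = 0.0575 to 0.156).

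Neuroendocrine and neural genes leaned the same way, with 19 of 127 regions higher (14.96%) and 35 lower (27.6%). Among all regions assigned to a gene 19.1% were higher and 14.0% lower. SRRM4, a neural splicing factor gene, had an end region at 0 in LNCaP and 91.4, 94.5 and 86.0 in VCaP (chr12:118981323-118981823, difference −90.6 ± 6.95 SE, adjusted p = 0.000719). Ends of DLL3, INSM1, NKX2-1, POU3F2, NCAM1, PCSK2 and DPYSL5 were also lower in LNCaP, and those of SYP (synaptophysin) and SST (somatostatin) were higher. The INSM1 call was lost when any 1 library other than VCaP replicate 2 was left out (adjusted p = 0.108 to 0.121). That of PCSK2 was lost without any 1 LNCaP library (adjusted p = 0.0549 to 0.0646). The SYP call was lost without any 1 LNCaP library or VCaP replicate 4 (adjusted p = 0.0511 to 0.112). NEUROD1, SEZ6 and PROX1 had LNCaP-high intragenic sites, by 72.1 to 89.5 points, and each also had a region lower in LNCaP. That of PROX1 stood at 0 in LNCaP and at 83.1, 82.4 and 65.1 in VCaP. A gene-end peak was found at 18 to 19 of the 30 genes in LNCaP libraries and at 19 to 22 in VCaP libraries. With entries of a −log10 q of at least 5 the list's lean was 0.0112 percentage points in the other direction.

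The lists that leaned most to LNCaP were that of antigen presentation and interferon genes and that of cancer-testis and imprinted genes. Antigen presentation and interferon genes had 18 of 92 regions higher (19.6%) and 5 lower (5.43%), and near gene ends 6 of 42 higher and 1 lower. The share of higher regions is close to the 19.1% of all regions assigned to a gene, and that of lower ones stands beside 14.0%, so the lean is in the lower calls. Over all gene-end regions 9.28% were higher and 12.3% lower. Ends of HLA-C, HLA-DMA and HLA-DRA were among the higher ones, as were regions at ends of OAS1 and IRF1, while PSMB8, a subunit of the immunoproteasome, was lower. The HLA-C call was lost without LNCaP replicate 3 (9.77 points, adjusted p = 0.0696), and the HLA-DMA call without LNCaP replicate 3 or 4 (adjusted p = 0.0543 and 0.0567). That of HLA-DRA was lost when any 1 library other than LNCaP replicate 5 was left out (adjusted p = 0.0769 to 0.107). The PSMB8 call was lost when any 1 LNCaP library was left out (adjusted p = 0.0631 to 0.0692). A site 5.95 kb from IRF1, an interferon regulatory factor gene, was at 0, 1.60 and 0 in LNCaP and 95.6, 91.3 and 91.5 in VCaP. HLA genes are alike in sequence and vary between people, and the part of read alignment in these values was not tested. Cancer-testis and imprinted genes had 21 of 76 higher (27.6%) and 7 lower (9.21%), with PRAME, a tumour antigen, at 95.2, 94.4 and 98.1 in LNCaP and 41.2, 0 and 46.4 in VCaP, and the imprinted SNRPN at 65.6, 78.0 and 69.4 in LNCaP and 0, 0 and 4.62 in VCaP, both at gene ends. Without LNCaP replicate 3 the PRAME difference was 67.0 points, with an adjusted p of 0.0502. The lean of this list was 13.3 percentage points, and it turned to −0.558 where a peak was required in all 6 libraries.

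**Figure D3:**
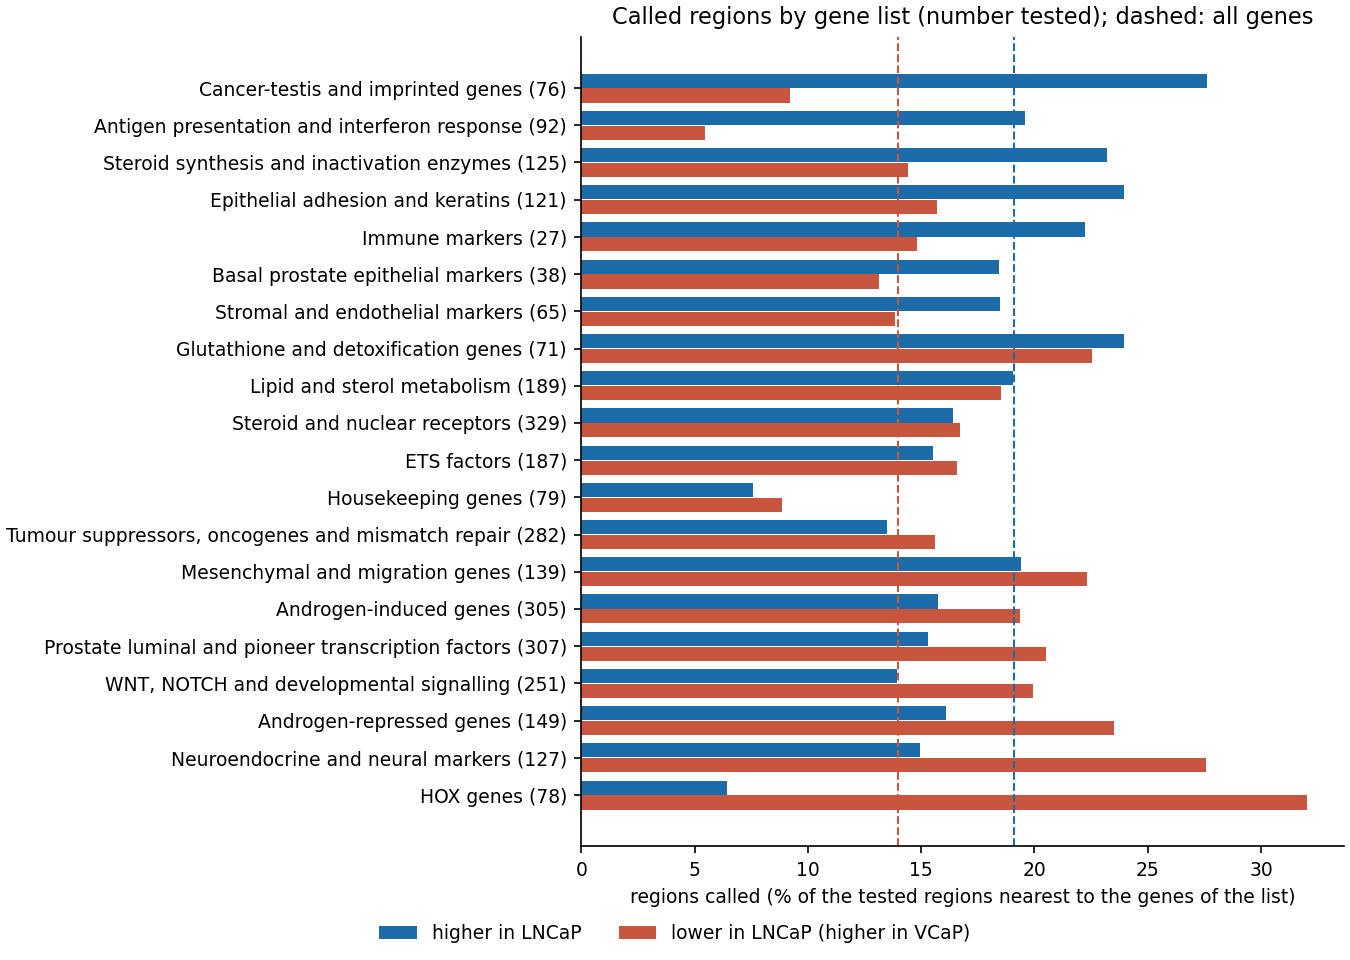
Bars give the share of the tested regions nearest to the genes of each list that were called higher or lower in LNCaP, in percent, with the number tested in parentheses and dashed lines at 19.1 and 14.0% for all regions assigned to a gene. HOX genes stand at 6.41% higher and 32.1% lower, and antigen presentation genes at 19.6 and 5.43%.

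Epithelial and mesenchymal genes were called in both directions. Of 121 regions of adhesion and keratin genes 29 were higher (24.0%) and 19 lower (15.7%). The KRT18 end was higher in LNCaP, at 94.9, 95.0 and 87.3, than in VCaP, at 67.6, 67.7 and 79.4, and so was that of DSP (desmoplakin), by 27.8 ± 4.44 points (SE), in a neighbourhood with a median log2 pileup difference of 1.64. KRT19 and TJP1, a tight junction gene, had ends at 0 in LNCaP, and at 79.8, 34.6 and 46.5 and at 68.5, 80.7 and 71.3 in VCaP. The KRT18 call was lost without LNCaP replicate 3 or 4 (adjusted p = 0.0646 and 0.0640), and the KRT19 call when any 1 LNCaP library was left out (adjusted p = 0.0671 to 0.0754). Mesenchymal and migration genes had 27 of 139 higher (19.4%) and 31 lower (22.3%), but at gene ends 0 of 22 higher and 9 lower, at CAV1, CAV2, CD44, CDH2, LOX, TGFB2 and TGFBR2. The shares over all are 19.1 and 14.0%, and 9.28 and 12.3% at gene ends. Calls at ends of CAV1, CAV2, LOX and TGFBR2 were lost when at least 1 library was left out (adjusted p = 0.0512 to 0.0912). So was that of the CDH2 end at chr18:28176593-28177093. CD44, a hyaluronan receptor gene, stood at 0, 23.4 and 0 in LNCaP and 91.4, 84.6 and 75.4 in VCaP, and TGFB2 at 15.001, 0 and 0 in LNCaP and 93.9, 94.3 and 82.2 in VCaP. Signalling genes of the WNT, NOTCH and related pathways had 35 of 251 higher (13.9%) and 50 lower (19.9%), with an intragenic NOTCH1 site at 89.5, 86.8 and 88.5 in LNCaP and 0 in VCaP and a NOTCH3 site at 0 in LNCaP and 97.9, 97.3 and 97.4 in VCaP.

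Lipid genes and cancer genes were also mixed, beside shares of 19.1% higher and 14.0% lower over all regions assigned to a gene. Lipid and sterol genes had 36 of 189 regions higher (19.05%) and 35 lower (18.5%), with intragenic sites of the sterol regulators SREBF1 and SREBF2 higher by 79.2 and 85.8 points and ends of FABP5, a fatty acid binding protein, and ELOVL2, a fatty acid elongase, at 0 in LNCaP and between 74.8 and 91.9 in VCaP. Tumour suppressors, oncogenes and mismatch repair genes had 38 of 282 higher (13.5%) and 44 lower (15.6%). A region near CDKN2A, the p16 gene, stood at 0 in LNCaP and 88.1, 94.0 and 79.9 in VCaP.

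Most markers of luminal prostate epithelium had gene-end peaks in both lines. A gene-end peak stood at 8 to 9 of 10 luminal genes in LNCaP libraries and at 9 in each VCaP library, with none at KRT19 in LNCaP and none at KLK3 in VCaP. Of other cell types, 5 to 6 of 12 basal, 3 to 4 of 15 stromal and endothelial and 3 to 4 of 15 immune genes had one in LNCaP, and 5 to 7, 4 and 3 to 4 in VCaP. The defining genes TP63, COL1A1 and CD3D had none in either line, but PTPRC, the CD45 gene, had one in at least 1 LNCaP library, and the basal keratin genes KRT5 and KRT14 in at least 1 VCaP library. Basal genes had 7 of 38 regions higher (18.4%) and 5 lower (13.2%). Stromal and endothelial genes had 12 (18.5%) and 9 (13.8%) of 65, and immune genes 6 (22.2%) and 4 (14.8%) of 27. These shares are close to the 19.1 and 14.0% of all regions assigned to a gene. The basal and the stromal lean each kept its sign in 9 of 20 other settings, and the immune lean in 16. All 18 housekeeping genes had a gene-end peak in every library, with 6 of 79 regions higher (7.59%) and 7 lower (8.86%) and, near gene ends, 0 of 29 higher and 1 lower. Over all gene-end regions 9.28% were higher and 12.3% lower. The GAPDH region of smallest p stood at 3.89, 6.12 and 57.7 in LNCaP and 96.5, 34.6 and 55.9 in VCaP and was not called, while a site 28.4 kb from ACTB, the beta-actin gene, stood at 73.5, 74.0 and 60.4 in LNCaP and 0 in VCaP.

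The called regions were spread unevenly over the chromosomes. On chromosome 16, 1048 of 2653 regions were higher (39.5%) and 124 lower (4.67%), and on chromosome 21, 133 of 1228 were higher (10.8%) and 347 lower (28.3%). Summit pileups moved with these counts: the median LNCaP minus VCaP difference over gene-end windows listed in every library was 1.22 on chromosome 16 and −0.60 on chromosome 21 (log2), and between −0.07 and 0.50 on the other chromosomes. Chromosome 14 came next on the LNCaP side, with 25.1% higher and 8.55% lower, and chromosome 13 on the VCaP side, with 13.6% and 23.6%. Without chromosomes 16 and 21, 28803 regions were called, 16340 higher and 12463 lower. In bulk cells, more copies of a stretch per cell and more accessible chromatin per copy cannot be told apart, and copy number was not measured here.

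**Figure D4:**
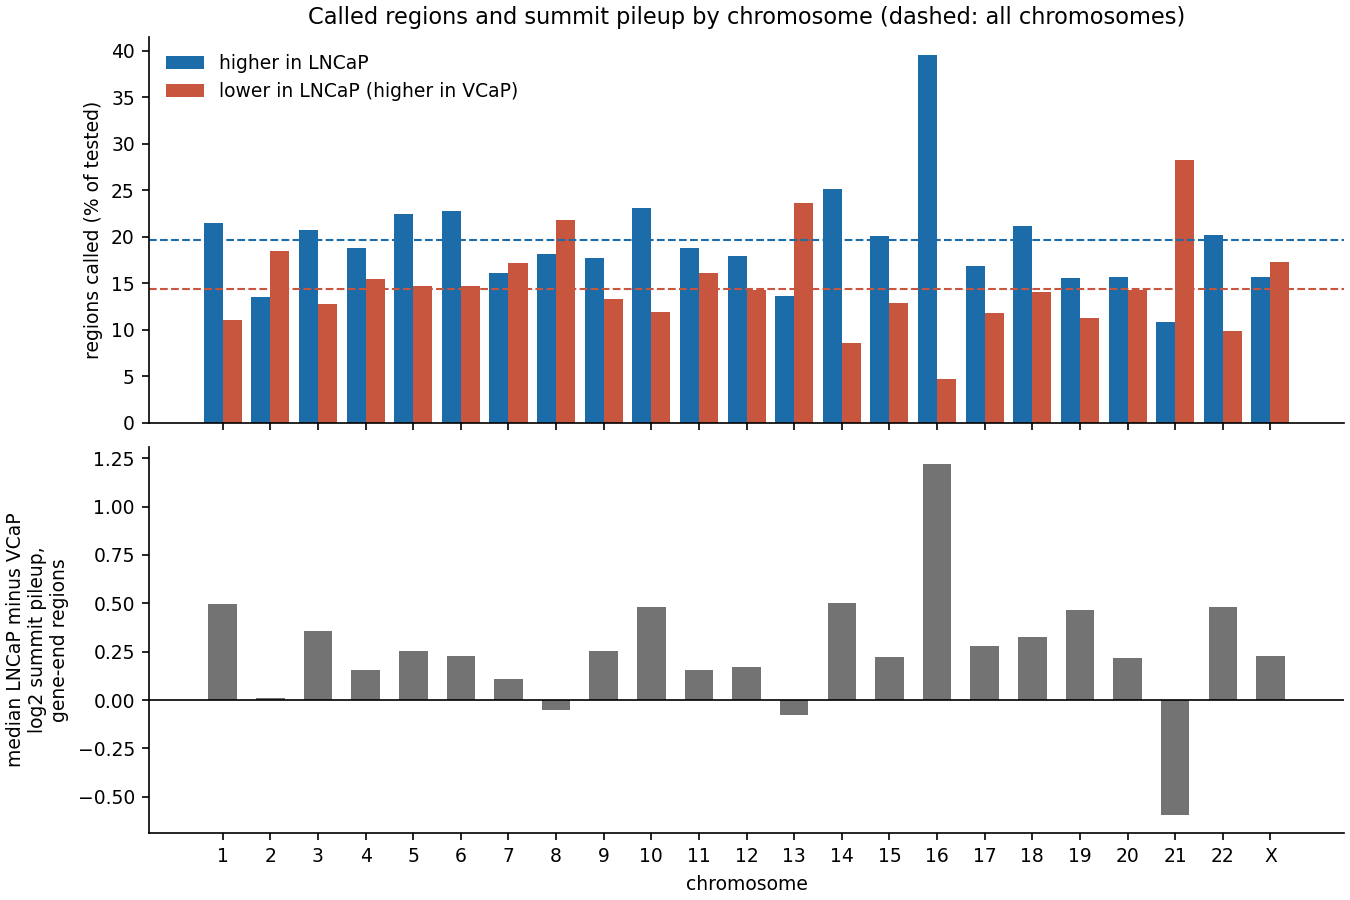
The upper bars give the share of tested regions called higher and lower in LNCaP on each chromosome, in percent, with dashed lines for all chromosomes, and the lower bars the median LNCaP minus VCaP log2 summit pileup of gene-end regions with a peak in all 6 libraries. Chromosome 16 stands out upward and chromosome 21 downward in both panels.

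Shorter stretches stood out within chromosomes, in blocks of 2 Mb with at least 10 regions in all 6 libraries. Over 1134 blocks the median log2 pileup difference had quartiles of −0.15 and 0.34 around 0.10. On chromosome 13 the block from 110 to 112 Mb, with the collagen genes COL4A1 and COL4A2 and with ING1, stood at −2.30, with 2 of 97 regions higher and 57 lower, while the block from 112 to 114 Mb next to it stood at 1.47, with 52 of 92 higher and 7 lower. On chromosome 6 the block from 20 to 22 Mb, with SOX4 and E2F3, stood at −1.26, and that from 12 to 14 Mb at 1.83. The highest was at 88 to 90 Mb of chromosome 16, at 2.15, with 59 of 115 higher and 2 lower. A site 6.18 kb from SOX4, a factor of the SOX family, stood at 0 in LNCaP and at 87.7, 76.7 and 86.6 in VCaP.

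Some stretches over 100 kb held peaks in every vehicle library of one line and not an entry in any of the 15 libraries of the other, in the whole lists. LNCaP had 5 such stretches of 110.4 to 315 kb, and VCaP 23 of 116 to 694 kb. The whole lists held 135254 to 223998 entries over all LNCaP libraries and 105034 to 170787 over all VCaP libraries. Both counts move with list length, so their gap is no measure of the lines. In VCaP, a stretch on chromosome 8 (chr8:26039674-26512102) took in EBF2, PPP2R2A, a regulatory subunit gene of protein phosphatase 2A, BNIP3L and PNMA2, and the LNCaP vehicle libraries held 37, 47 and 67 entries there. The BNIP3L end stood at 95.5, 95.7 and 95.1 in LNCaP and 0 in VCaP. A stretch on chromosome 16 (chr16:84712325-84988906) took in USP10, CRISPLD2 and ZDHHC7, with 24, 37 and 35 LNCaP entries. Others lay at ISL1 on chromosome 5 (chr5:51048317-51383518), with 9, 11 and 6 entries, and at KLHL13 on the X chromosome (chrX:117275209-117969697), with 12, 12 and 6. A stretch without entries shows no peak past the authors' threshold, and whether the DNA is absent there was not tested.

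**Figure D5:**
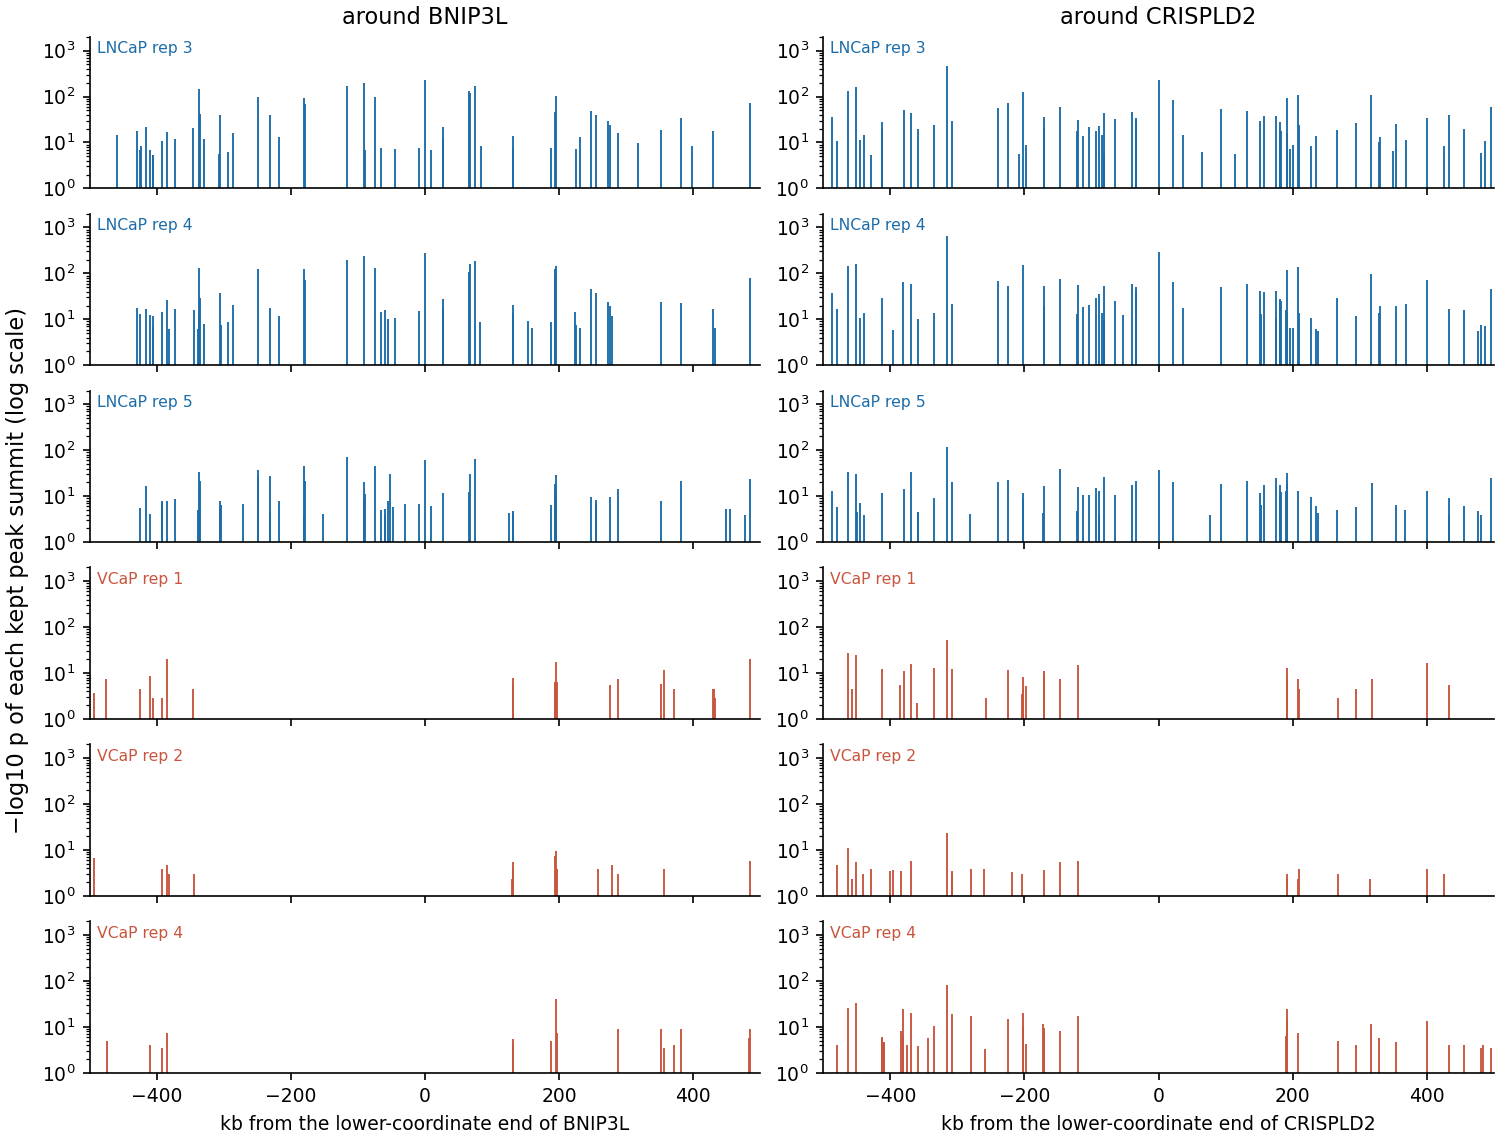
Each bar is a kept peak summit at its distance in kb from the lower-coordinate end of BNIP3L (left) or CRISPLD2 (right), with its −log10 p on a log scale, in each LNCaP and VCaP vehicle library. LNCaP lists hold entries in stretches around both genes where VCaP lists are empty.

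The androgen-treated libraries, none of which entered the calls above, gave the same line differences to a large extent. They carry the same replicate numbers and cell seeding per line as the vehicle libraries. Background pileup was 3.06 to 5.26 over all LNCaP and 1.09 to 2.74 over all VCaP libraries of the series, so the gap in depth is shared too. The part of these shared traits in the agreement was not tested. At 0.03 nM R1881, 98.5% of the regions called higher with vehicle were again higher in the mean and 79.9% without overlap between the lines, against 31.6% without overlap in that direction over all tested regions. For the regions called lower the shares were 96.0, 64.9 and 15.3%. At 0.06 nM they were 97.8 and 82.4% for the higher and 95.5 and 74.6% for the lower regions, against 33.3 and 18.97% over all. At 10 nM they were 87.1 and 68.6% for the higher and 90.003 and 65.8% for the lower regions, against 28.5 and 18.2% over all. The line difference called with vehicle was thus less often kept at 10 nM than at the low doses by the count of directions.

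Some regions listed in VCaP alone with vehicle had peaks in LNCaP libraries given androgen. The regions were chosen for having no LNCaP vehicle peak, so any other library can only add peaks there, and no vehicle library outside the choice was at hand to compare. Of 6336 regions called lower with no LNCaP vehicle peak, 180 (2.84%) had a peak in all 3 LNCaP libraries at 0.03 nM, 407 (6.42%) at 0.06 nM, 502 (7.92%) at 0.1 nM and 735 (11.6%) at 10 nM. Among them were the KLK2 and TRPM8 sites above, and a site 28.5 kb from SST, at 0 in LNCaP with vehicle and 70.6 ± 6.53 at 10 nM. Of 10051 regions called higher with no VCaP vehicle peak, 80 (0.796%) had one in all 3 VCaP libraries at 0.01 nM, 84 (0.836%) at 0.03 nM, 271 (2.70%) at 0.06 nM and 423 (4.21%) at 10 nM. The SRD5A1 site was among these. Which of these regions change with androgen within a line was not tested here.

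Promoters with a tested region within 250 bases of the start site were compared by their letters over the 300 bases that RefSeq's table gives, from 250 before to 50 after the start. The table held 21942 distinct promoters of 15655 genes. Promoters higher in LNCaP (1097) held a median of 26 CpGs, those lower (1200) 24, those tested but not called (9277) 28 and those with no tested region (10368) 8. The ETS letters CCGGAAGT, on either strand, were in 10.3% of the higher, 3.92% of the lower and 9.37% of the uncalled promoters, and in 5.33% of all. Other ETS letters, CAGGAAG, were in 13.5, 10.0 and 11.4% of these, and in 12.6% of all. These letters are among 26 motifs searched and were picked after their values were seen. The SP and KLF letters GGGGCGGGG were in 27.5, 20.8 and 30.1% of these, and in 20.7% of all. The forkhead letters TGTTTAC were in 2.19% of the higher and 2.33% of the lower promoters and in 2.86% of all. A match is a stretch of letters, not a bound site. Of the promoters shown above, that of RASSF6 holds the forkhead letters and that of TRIOBP the SP and KLF letters.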

How the data were processed

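Omni-ATAC libraries of LNCaP and VCaP cells under vehicle were compared from the peak lists that the authors deposited, 1 per library. Per the submitters' processing notes, the tools were MACS2 2.2.7.1, deepTools 3.5.1, BWA 0.7.17 and Trimmomatic 0.39 on GRCh38 (hg38). The authors' lists give, per entry, a score, a fold enrichment (ratio), a −log10 p, a −log10 q and a summit, with no read counts, and were called per library. The score is the whole part of 10 times the −log10 p.

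Each list was cut to its 100000 entries of highest −log10 p. Windows of 501 bp were placed around summits, strongest first and without overlap. Percentile ranks of the entry over a window's centre were tested with limma 3.58.1 (R 4.3.3; trend and robust moderation, two-sided, Benjamini-Hochberg) where at least 3 of 6 libraries had a peak, a step tested on simulated data. Summit and background pileups were solved from fold and −log10 p under a Poisson model and lay within 0.05 of a whole number for at least 99.971% of peaks per library; a library's background is percentile 1. Gene bodies came from RefSeq (GRCh38.p14).

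The members, lists, tests and alternatives were chosen with earlier results of these data known. Named genes are the 10 largest differences each way overall and at gene ends, up to 4 genes each way per list and 20 fixed genes by their region of smallest p. The first 3 kinds required groups without overlap and calls under 2 other peak rules (an overlap of 1 bp, and a summit within 250 bp). Other gene-end and locus regions were chosen after their values were seen: those of KLK2, KLK3, TRPM8, HOXB13, HOXD11, HOXC13, TMPRSS2, ERG, CDH2, KRT18, DSP, KRT19, MT1G, NQO1, FABP5 and ELOVL2, with all loci, blocks and stretches. Results of some genes are not reported here, and counts over lists and regions may include them.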

Additional observations from a re-analysis of the deposited data

How the results depend on the processing

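Call counts, leans and named regions were recomputed under 20 other settings as far as a region passed their filters, and counts of regions in 1 line alone, widths and gene-end shares under some of them. Blocks, stretches, markers, promoter letters and shares with androgen were not. Called regions, 30455 in all (17521 higher, 12934 lower), numbered 18263 (10205 and 8058) with the 50000 strongest entries, 4105 (1587 and 2518) with ranks and 9544 (5317 and 4227) with log2 pileups where a peak was required in all 6 libraries, and 14493 with a −log10 q of at least 5, of which 1924 were lower. The filters leave fewer regions to test. Without 1 library they ranged from 21914 to 28131 (12491 to 16678 higher, 9423 to 12762 lower). Regions with a peak in LNCaP alone, 12315, numbered 7627 with the 50000 strongest entries and 12939 to 22478 without 1 library. Those with a peak in VCaP alone, 7416, numbered 2137 with a −log10 q of at least 5 and 8067 to 13764 without 1 library. The width difference of 7.33 bp became −35.0 bp with all entries, −92.0 bp with the 50000 strongest and −215 bp with a −log10 q of at least 5, and the cause was not tested.

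Over 196 named regions and 3503 recomputed values, 3375 kept direction and call, 120 lost the call, 2 gained it and 6 turned round, all of the last at regions not called. These were UGT2B17, at 3.002 points, which became −0.0653 with normal scores (on that scale) and between −5.92 and 10.7 without 1 library (−0.85 without VCaP replicate 2 or 4), and GAPDH, at −39.8 points, which became 0.905 with the 50000 strongest entries and 6.16 with a −log10 q of at least 5. Of 155 called gene-end regions of the lists, 69 lost the call when at least 1 of the 6 libraries was left out. No paired analysis was possible because the groups compared share fewer than 2 replicate numbers. Depth differs between the lines, a level of 0 may hold signal below the authors' threshold, and the part of depth in the calls was not tested.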

Other observations

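A few genes held many called regions of 1 direction, named here after their values were seen. On the LNCaP side these were NAALADL2, a long gene of chromosome 3 with 29 of 59 tested regions higher and 1 lower, GSE1 on chromosome 16 with 21 of 35 higher and 0 lower, and PPFIA2, a synaptic scaffold gene, with 21 of 40 higher and 1 lower. JARID2, a partner of Polycomb complex 2, had 15 of 22 higher and 0 lower. On the VCaP side, OPCML, a cell adhesion gene, had 1 of 30 regions higher and 22 lower, and FOXP1, a forkhead gene, 5 of 47 higher and 21 lower. NFIB, a nuclear factor I gene, had 2 of 30 higher and 14 lower, although its named site was higher in LNCaP. MACROD2 and PDE4D were called in both directions, with 12 higher and 14 lower of 48 and of 62 tested regions.

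Peaks found in 1 library alone numbered 87484 of the 205155 regions placed and were not tested. They were 6791, 6832 and 13626 in LNCaP replicates 3, 4 and 5 and 17627, 32073 and 10535 in VCaP replicates 1, 2 and 4.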
